A study of Mus musculus with 93 samples.

Results

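The immediate early genes Egr1, Egr2, Egr3, Egr4, Nr4a1, Nr4a2, Nr4a3, Sik1, Dusp1 and Ier2 were followed across the neural retina and the posterior eyecup of ageing mice. These 10 genes were taken by symbol from the 30235 genes of the deposited tables. The members were chosen by name with their Efemp1ki/ki against wild-type fold changes in these libraries known, so the genotype values, and the counts of members past the threshold given with them, are a description and support nothing. Changes of the members with age, averaged over genotypes, and their differences between tissues were tested over all genes. The age averages include the Efemp1ki/ki libraries that also entered those genotype values, so they are not free of the choice of members.

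Messenger RNA was sequenced from female mice that were wild type (Efemp1+/+) or homozygous for a knock-in of Efemp1 (Efemp1ki/ki), the gene of the matrix protein fibulin-3, an animal model of Doyne honeycomb retinal dystrophy. Tissue was taken at 3, 9 and 17 months, either the neural retina or the posterior eyecup, the part of the eye left once retina and lens are removed, and the labels list no treatment. That gave 12 groups and 93 libraries. Each group held 8 libraries, except the wild-type eyecups at 3 months, with 6, and the Efemp1ki/ki eyecups at 17 months, with 7. Whether each library stands for 1 mouse is not in the labels, so the p-values measure only how these libraries varied, which may be technical.

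The 45 eyecups held between 14236127 and 35297627 estimated counts each and the 48 retinas between 9218127 and 37475492. Rod markers summed to between 54313 and 73582 CPM (a gene's count relative to its scaled library total) in retinas and to between 190.14 and 24353 in eyecups. Markers of the retinal pigment epithelium summed to between 571.29 and 2355.8 CPM in eyecups and to between 408.63 and 622.74 in retinas, ranges that overlap. Their mean log2 CPM did not overlap, at 5.38 to 7.16 in eyecups and 2.16 to 4.73 in retinas. Rlbp1 of this list was also among the Mueller glia markers. Eyecups also held transcripts of corneal and conjunctival epithelium (21485 to 61616 CPM) and of skeletal muscle (1991.4 to 35364 CPM). Efemp1ki/ki eyecup 7 of 9 months and 4 of 17 months and retina 5 of 3 months, and wild-type retina 2 of 17 months, correlated less with their own groups than the rest did. Without these 4 libraries the retinal age counts below were within 1.5 times, 7 members instead of 4 were called between 3 and 17 months in the eyecup, and the retinal genotype call of Nr4a1 at 17 months was lost. Efemp1 itself lay between 46.6 and 78.1 CPM in wild-type retinas and between 48.2 and 84.7 in Efemp1ki/ki retinas, and a knock-in need not change that level.

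Immediate early genes are transcribed soon after a cell is stimulated, without new protein synthesis, by factors such as Creb and serum response factor that are already in place. The Egr proteins are zinc finger transcription factors and the Nr4a proteins are orphan nuclear receptors, and both pass a brief signal on to slower target genes. Sik1 and Dusp1 act the other way: the salt-inducible kinase Sik1 keeps Crtc coactivators of Creb out of the nucleus, and the phosphatase Dusp1 switches off MAP kinases. In the retina, genes of this kind are known to respond to light, neuronal activity and injury. The time of day, the lighting and the interval from death to dissection are not in the labels, so their part in the age and genotype differences below cannot be told apart from that of the groups.

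Sequence just before the transcription start was available for 6 members (Nr4a1, Nr4a2, Nr4a3, Egr2, Egr4 and Dusp1) from RefSeq on GRCm38.p6, and is shown because these genes share a short motif there. Capitals mark TGACG, the core of the cAMP response element that Creb binds, or its reverse complement CGTCA. The windows are Nr4a1 chr15:101266596-101266845 (+), Nr4a2 chr2:57124004-57124253 (-), Egr4 chr6:85513590-85513839 (-) and 1 of 5 starts of Egr2, chr10:67537619-67537868 (+). For Nr4a3, chr4:48045055-48045152 (+), and Dusp1, chr17:26508520-26508722 (-), only the bases outside annotated untranslated regions are printed, 98 and 203 of the 250.
Nr4a1: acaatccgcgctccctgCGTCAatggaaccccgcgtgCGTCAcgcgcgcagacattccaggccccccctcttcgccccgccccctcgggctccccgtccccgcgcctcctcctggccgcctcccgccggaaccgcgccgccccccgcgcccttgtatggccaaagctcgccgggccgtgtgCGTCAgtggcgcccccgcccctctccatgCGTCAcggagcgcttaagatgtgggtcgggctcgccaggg
Nr4a2: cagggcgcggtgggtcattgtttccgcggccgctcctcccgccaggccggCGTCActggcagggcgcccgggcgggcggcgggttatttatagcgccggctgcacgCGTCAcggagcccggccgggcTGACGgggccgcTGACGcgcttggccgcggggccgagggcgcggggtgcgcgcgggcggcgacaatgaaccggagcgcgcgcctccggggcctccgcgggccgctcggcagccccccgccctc
Nr4a3: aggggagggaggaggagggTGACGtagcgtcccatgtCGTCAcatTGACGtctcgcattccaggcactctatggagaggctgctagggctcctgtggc
Egr4: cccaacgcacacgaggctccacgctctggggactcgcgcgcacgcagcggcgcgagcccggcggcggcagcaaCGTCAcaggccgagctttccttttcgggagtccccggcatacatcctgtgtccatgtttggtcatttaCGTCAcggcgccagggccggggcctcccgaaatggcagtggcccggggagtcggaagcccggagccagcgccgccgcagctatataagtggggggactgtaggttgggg
Egr2: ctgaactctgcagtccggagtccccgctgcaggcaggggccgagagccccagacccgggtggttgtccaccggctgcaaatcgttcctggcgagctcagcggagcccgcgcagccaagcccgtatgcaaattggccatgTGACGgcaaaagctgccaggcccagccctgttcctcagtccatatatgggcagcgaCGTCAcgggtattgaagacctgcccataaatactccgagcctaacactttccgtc
Dusp1: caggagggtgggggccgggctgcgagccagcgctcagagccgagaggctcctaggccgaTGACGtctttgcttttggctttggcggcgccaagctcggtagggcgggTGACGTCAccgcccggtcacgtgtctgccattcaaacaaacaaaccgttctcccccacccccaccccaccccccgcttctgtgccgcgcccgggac

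In these 250 base windows TGACG occurred on either strand 4 times each for Nr4a1, Nr4a2 and Nr4a3, 3 times for Dusp1 and 2 times for Egr4. Of the 5 Egr2 starts, 3 lie close together and share the same 2 copies. At least 1 copy stood in 17.8% of 32851 windows of the same length before all RefSeq starts, at least 2 in 3.903% and at least 4 in 0.137%. The full palindrome TGACGTCA, which counts as 2 overlapping copies, was found for Dusp1 alone among these members and in 1.55% of all windows. A CArG box, the motif of serum response factor, stood in the windows of 4 of the 5 Egr2 starts, 3 of them these overlapping windows, and in 1.47% of all windows. The motifs AAAGGTCA (bound by Nr4a monomers), GCGTGGGCG (bound by Egr proteins) and TGANTCA (bound by AP-1) were not in any of the members' windows. Each match describes these letters only.

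Members differed widely in level. On the deposited TPM scale, which accounts for gene length, the retinal medians over 48 libraries were 34.0 for Ier2, 26.2 for Dusp1, 25.2 for Nr4a1, 15.2 for Egr1, 8.16 for Nr4a2, 6.26 for Sik1, 1.56 for Egr4, 1.12 for Egr3, 0.830 for Nr4a3 and 0.0885 for Egr2. The eyecup medians over 45 libraries were 70.9 for Ier2, 64.1 for Dusp1, 38.6 for Egr1, 34.9 for Sik1, 15.1 for Nr4a2, 13.3 for Nr4a1, 2.61 for Nr4a3, 1.19 for Egr2, 0.877 for Egr3 and 0.112 for Egr4. Egr2, a regulator of myelination by Schwann cells, had no read in 16 of 48 retinas and at most 6 reads in any. Egr4 had no read in 11 of 45 eyecups. The filter on low counts therefore left Egr2 out of the retinal fit and Egr4 out of the eyecup fit, so 9 of 10 members were tested in each tissue.

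**Figure D1:**
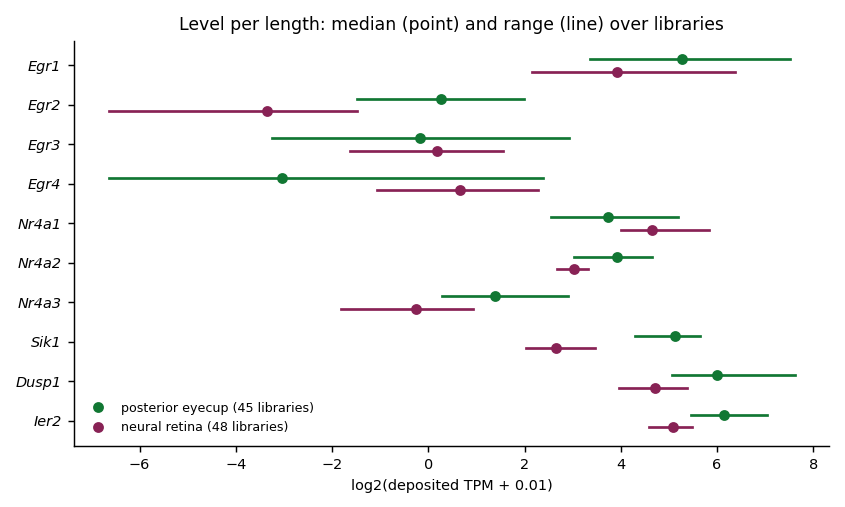
Median (point) and full range (line) over libraries of each member's deposited TPM, as log2(TPM + 0.01), in 45 posterior eyecups and 48 neural retinas. Egr2 in the retina and Egr4 in the eyecup lie at the bottom of the scale, and the ranges of Egr2 and Sik1 do not overlap between tissues.

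In the neural retina most members were lower at 9 months than at 3 months and higher again at 17 months, averaged over both genotypes with equal weight. From 3 to 9 months 6 of the 9 tested members fell (edgeR quasi-likelihood test, adjusted p under 0.05 over all 17240 genes), where 34.0% of all genes were called and 16.6% were lower. From 9 to 17 months 8 of 9 rose, where 27.0% of all genes were called and 12.7% were higher. Their median log2 fold change was -0.43 and then 0.46, against 0.00325 and 0.00487 over all genes. Both comparisons use the 9-month libraries, so the fall and the rise are not separate evidence. Both also include Efemp1ki/ki libraries that entered the genotype values known beforehand, so these counts are not free of the choice of members. In wild-type retinas alone 1 of 9 fell and then 2 rose, where 30.7% and 21.6% of all genes were called. Between 3 and 17 months 0 of 9 members were called by edgeR, 0 had an unadjusted p under 0.05, and DESeq2 also called 0, where 36.4% of all genes were called. In RNA from whole tissue, a change in the share of cells that express a gene and a change in RNA per cell cannot be told apart.

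Egr1 (ENSMUSG00000038418.7, chromosome 18, 34859823 to 34864984 in GRCm38), the most widely studied activity-induced zinc finger factor, moved most. In wild-type retinas its lowest, median and highest values were 5.75, 14.3 and 61.9 CPM at 3 months, 5.51, 9.61 and 18.04 at 9 months and 6.31, 18.9 and 44.2 at 17 months. Efemp1ki/ki retinas measured 42.8, 71.4 and 103 CPM, then 8.17, 13.4 and 19.5, then 30.6, 49.2 and 84.4. The 9-month libraries of both genotypes were low and close together, whereas wild-type retinas of 3 and 17 months spread widely and overlapped every other age. In Efemp1ki/ki all 8 retinas of 9 months lay below all 8 of 3 months and all 8 of 17 months. Averaged over genotypes, Egr1 fell by 1.69 on the log2 scale (SE 0.28, adjusted p = 1.10e-05) to 9 months and then rose by 1.49 (SE 0.28, adjusted p = 0.000130).

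Egr4 (ENSMUSG00000071341.4, chromosome 6, 85511121 to 85513589), a family member found mainly in neurons, followed the same course at a level near 1 CPM. It fell by 0.98 (SE 0.21, adjusted p = 0.000222) and then rose by 0.70 (SE 0.21, adjusted p = 0.00898). The 9-month values ran from 0.317 to 0.875 CPM in wild type and from 0.230 to 1.01 in Efemp1ki/ki, where 7 of 8 libraries lay below the lowest of 3 months; the ranges overlapped between ages in both genotypes. That rise was no longer called with a correction for GC content (0.42, adjusted p = 0.141), and over all alternatives its adjusted p ran from 0.00475 to 0.461. Egr3 (ENSMUSG00000033730.3, chromosome 14, 70077445 to 70080157), which acts beside Egr1 in activity-dependent transcription, had a log2 fold change of -0.46 ± 0.22 (SE) to 9 months without passing and then rose by 0.77 ± 0.20 (adjusted p = 0.00416).

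Among the nuclear receptors, Nr4a1 (ENSMUSG00000023034.6, chromosome 15, 101266846 to 101274792) changed most surely. Wild-type retinas held 16.4, 23.8 and 30.7 CPM (lowest, median, highest) at 3 months, 13.9, 21.3 and 24.2 at 9 months and 19.8, 23.5 and 32.5 at 17 months. In Efemp1ki/ki retinas the values were 27.2, 39.0 and 54.6, then 17.8, 22.5 and 29.4, then 27.1, 34.3 and 49.8 CPM. At each age the ranges of the genotypes overlapped, with Efemp1ki/ki medians above wild type by more at 3 and 17 months than at 9. This describes genotype values known beforehand. Averaged over genotypes, the fall was 0.51 on the log2 scale (SE 0.10, adjusted p = 9.41e-05) and the later rise 0.46 (SE 0.10, adjusted p = 0.000558).

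Nr4a3 (ENSMUSG00000028341.9, chromosome 4, 48045153 to 48086447) had a fold change of -0.30 ± 0.17 to 9 months without passing and rose by 0.50 ± 0.16 afterwards (adjusted p = 0.0168). Nr4a2 (ENSMUSG00000026826.13, chromosome 2, 57106830 to 57124003), which is also needed for the identity of certain neurons, did not share the pattern. Its fold changes were -0.02 ± 0.05 and 0.06 ± 0.05 on the log2 scale. Across all 48 retinas it stayed between 6.499 and 10.5 CPM, and the group medians lay between 7.597 and 8.69 CPM.

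The feedback genes moved by less than Egr1 but with tighter groups. Sik1 (ENSMUSG00000024042.6, chromosome 17, 31844248 to 31855792) measured 8.61, 9.99 and 13.4 CPM in wild-type retinas at 3 months, 7.34, 8.82 and 11.5 at 9 months and 8.91, 10.5 and 15.8 at 17 months. The Efemp1ki/ki values were 14.9, 16.01 and 19.8, then 8.21, 10.4 and 12.5, then 11.2, 15.0 and 19.2 CPM. At 3 months all 8 Efemp1ki/ki retinas exceeded all 8 wild-type ones, and all 8 also exceeded every Efemp1ki/ki retina of 9 months. Over both genotypes Sik1 fell by 0.43 (SE 0.08, adjusted p = 3.18e-05) and rose by 0.42 (SE 0.08, adjusted p = 7.55e-05).

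Dusp1 (ENSMUSG00000024190.6, chromosome 17, 26505590 to 26508519) had wild-type values of 10.8, 15.5 and 22.9 CPM at 3 months, 10.03, 13.6 and 15.9 at 9 months and 14.0, 16.7 and 22.6 at 17 months. In Efemp1ki/ki they were 20.1, 22.9 and 27.2, then 14.2, 15.1 and 18.7, then 17.0, 22.4 and 25.3 CPM. The Efemp1ki/ki retinas of 9 months again lay wholly below those of 3 months. Dusp1 fell by 0.40 (SE 0.09, adjusted p = 0.000640) and rose by 0.43 (SE 0.09, adjusted p = 0.000393). Ier2 (ENSMUSG00000053560.4, chromosome 8, 84661331 to 84662852), a small nuclear protein gene induced by growth factors, fell by 0.36 (SE 0.08, adjusted p = 0.000293) and rose by 0.44 (SE 0.08, adjusted p = 3.87e-05). Its group medians were 15.0, 12.8 and 18.7 CPM in wild type and 19.3, 14.0 and 17.7 in Efemp1ki/ki.

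**Figure D2:**
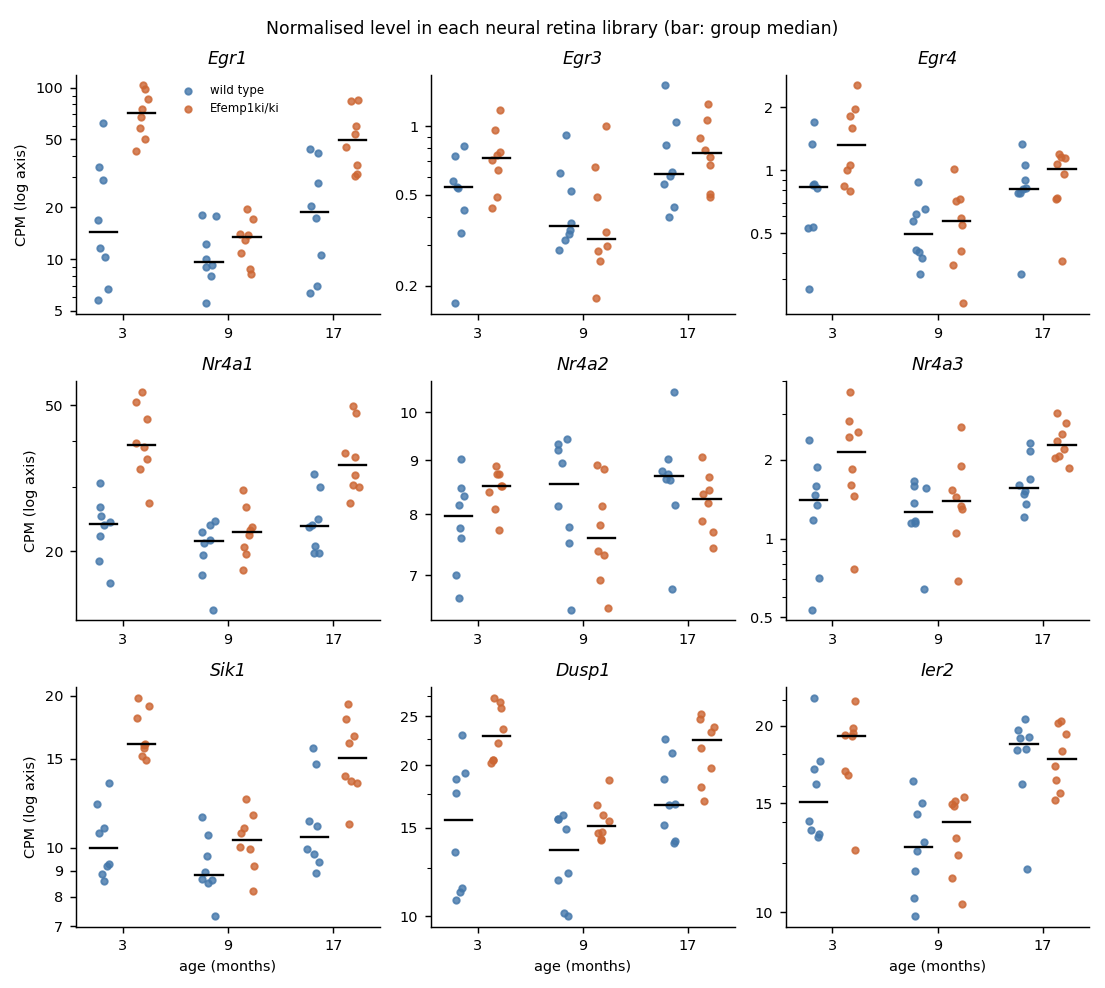
TMM-scaled CPM on log axes of the 9 members tested in the neural retina, 1 point per library (8 per group), by age in months and genotype, with a bar at each group median. The 9-month libraries form the lowest groups for Egr1, Nr4a1, Sik1 and Dusp1 in Efemp1ki/ki, and Nr4a2 keeps its level between 6.499 and 10.5 CPM.

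Fewer members passed in wild-type retinas alone. There 1 of 9 members fell from 3 to 9 months (Ier2, -0.28 ± 0.11, adjusted p = 0.0460), where 30.7% of all genes were called. From 9 to 17 months 2 rose, Dusp1 (0.39 ± 0.13, adjusted p = 0.0265) and Ier2 (0.47 ± 0.11, adjusted p = 0.00223), where 21.6% were called. Egr1 had wild-type fold changes of -0.91 ± 0.41 and 0.96 ± 0.40 and did not pass at either step. In Efemp1ki/ki alone, whose 3-month and 17-month libraries also entered the genotype values known beforehand, 6 members were lower and then 5 higher, where 8.49% and 3.53% of all genes were called. The ranges of 3 members, Egr1, Sik1 and Dusp1, did not overlap between 3 and 9 months in Efemp1ki/ki, as for 1.26% of all genes, and that of Egr1 did not overlap between 9 and 17 months, as for 0.824%. Whether the age changes differed between genotypes was not tested. With rod, pigment epithelium and lens markers as covariates 4 members fell from 3 to 9 months in the analysis of both genotypes, as Egr4 (-0.68, adjusted p = 0.156) and Ier2 (-0.26, adjusted p = 0.132) no longer passed; over all alternatives their adjusted p-values began at 3.32e-05 and 3.31e-05.

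Cell type markers changed over the same ages in the retina. The rod marker sum had a median of 70133 CPM (65595 to 73582) in wild-type retinas at 3 months, 57570 (54960 to 64186) at 9 months and 63869 (56924 to 73002) at 17 months. In Efemp1ki/ki it was 64946 (59055 to 69520), 58163 (55467 to 61805) and 58372 (54313 to 66444). From 3 to 9 months 6 of 10 rod markers and 7 of 10 markers of other retinal neurons fell, while 5 of 7 markers of macrophages and microglia rose. Over all genes 34.0% were called at this step, 16.6% lower. No marker was at 0 in all retinas. The part of these shifts in the members' changes was not tested, beyond the covariates above.

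In the posterior eyecup 1 of 9 tested members was called from 3 to 9 months and 3 from 9 to 17 months, against 6 and 8 in the retina. Of all genes 12.7% and 5.20% were called in the eyecup, against 34.0% and 27.0% in the retina, so the counts do not compare the tissues. From 3 to 9 months 7 of 9 tested members had negative fold changes, with a median of -0.25 against 0.03 over all genes, and from 9 to 17 months 8 of 9 had positive ones, with a median of 0.54 against 0.0099. Whether these steps differed between tissues was not tested. Averaged over genotypes, 4 of 9 tested members differed between 3 and 17 months, where 20.7% of all 18003 genes were called, 11.6% higher and 9.13% lower. Egr2 rose by 1.38 (SE 0.28, adjusted p = 0.000750), Nr4a3 by 0.93 (SE 0.24, adjusted p = 0.00604) and Nr4a1 by 0.55 (SE 0.16, adjusted p = 0.0140), and Nr4a2 fell by 0.44 (SE 0.09, adjusted p = 0.000784). The median over the 9 members was 0.23, against 0.05 over all genes.

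Egr2 (ENSMUSG00000037868.15, chromosome 10, 67535475 to 67542188) measured 0.852, 1.18 and 1.53 CPM in wild-type eyecups at 3 months, 0.461, 1.31 and 2.62 at 9 months and 1.07, 2.24 and 5.79 at 17 months. In Efemp1ki/ki the values were 0.489, 1.29 and 2.74, then 1.503, 1.83 and 4.00, then 1.34, 2.14 and 7.01 CPM. The oldest eyecups of both genotypes included the highest libraries but overlapped the younger ones. Each genotype alone showed the rise, by 1.41 ± 0.42 in wild type (adjusted p = 0.0376), where 2 of 9 members and 5.88% of all genes were called, and 1.35 ± 0.38 in Efemp1ki/ki (adjusted p = 0.0399), where 2 of 9 and 3.57% were.

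Nr4a2 took the opposite direction. Wild-type eyecups had medians of 23.2 CPM (19.02 to 30.8) at 3 months, 18.3 (15.7 to 26.03) at 9 months and 16.7 (12.6 to 20.5) at 17 months. Those of Efemp1ki/ki had medians of 24.8 CPM (18.3 to 30.7), 21.3 (14.8 to 26.2) and 17.9 (14.3 to 24.002). In wild type alone the fall was 0.50 (SE 0.13, adjusted p = 0.0222); in Efemp1ki/ki alone the fold change was -0.39 ± 0.13 and did not pass. Nr4a3 had medians of 5.41, 6.47 and 9.45 CPM in wild type and 5.14, 7.10 and 8.26 in Efemp1ki/ki, and its spread grew from 4.19 to 6.81 CPM at 3 months to 3.03 to 14.7 at 17 months in wild type.

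From 3 to 9 months 1 member, Ier2, fell, by 0.49 (SE 0.13, adjusted p = 0.0106), where 12.7% of all genes were called and 7.22% were lower. That call was lost with the GC correction (-0.35, adjusted p = 0.199) and on log2(TPM + 1) (-0.33, adjusted p = 0.0686), with adjusted p-values from 0.00151 over all alternatives, whereas DESeq2 called 3 members. From 9 to 17 months 3 of 9 members rose, where 5.20% were called: Egr3 by 1.21 (SE 0.32, adjusted p = 0.0214), Nr4a1 by 0.79 (SE 0.16, adjusted p = 0.00197) and Dusp1 by 0.61 (SE 0.19, adjusted p = 0.0470). These steps share the 9-month libraries. Efemp1ki/ki eyecup 5 of 17 months was the highest of its group for Egr1 (347 CPM, next 123), Dusp1 (202, next 98.6), Ier2 (105, next 56.9), Egr3 (6.21, next 1.45) and Nr4a1 (56.3, next 39.02). By less, it was also the highest for Sik1 (105.3, next 95.8) and Nr4a2 (24.0, next 22.3). For Egr2 and Nr4a3, library 1 of that group was higher than library 5. Without library 5 of that group 1 of the 3 calls was kept, that of Nr4a1, while Egr3 had 0.80 (adjusted p = 0.0832, from 0.00452 to 0.160 over all alternatives) and Dusp1 0.43 (adjusted p = 0.133, from 0.00345 to 0.304).

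**Figure D3:**
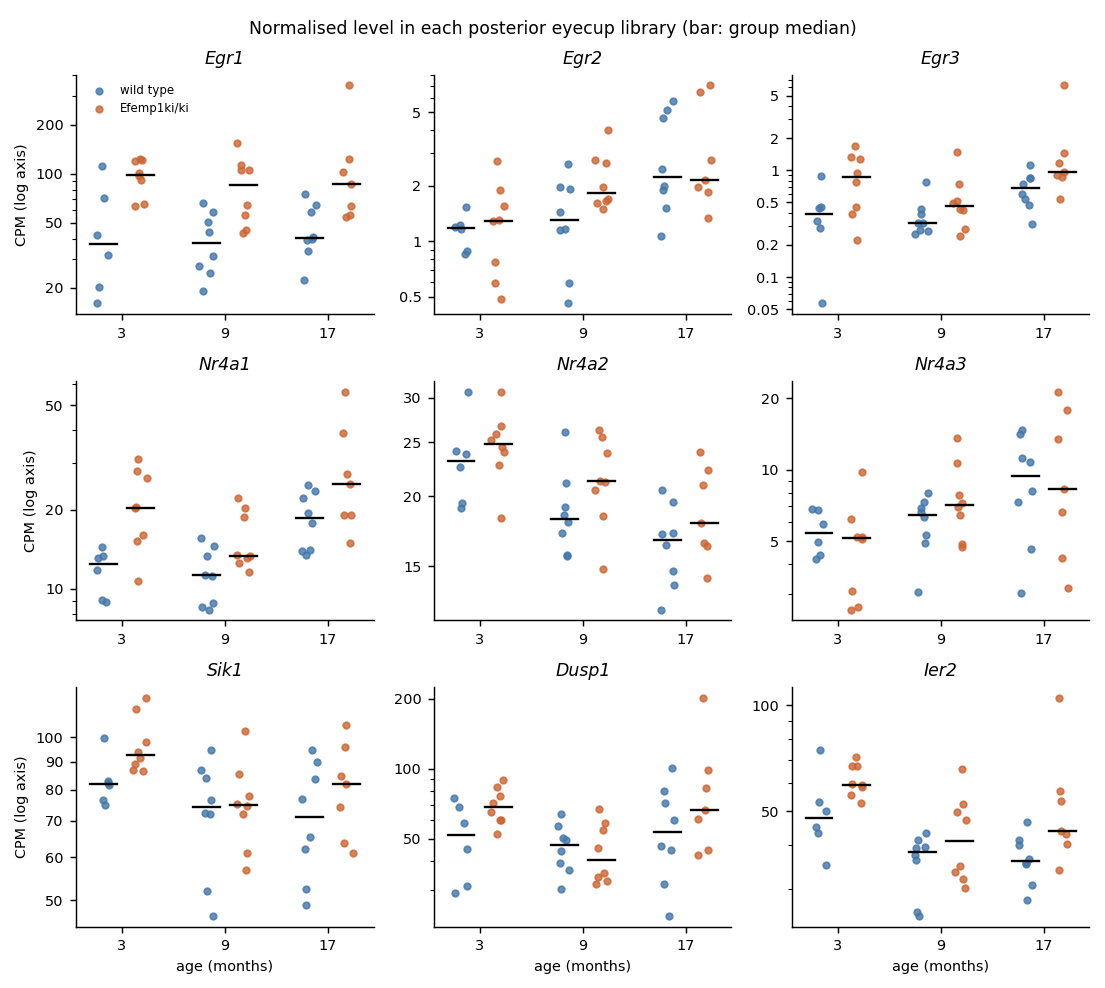
TMM-scaled CPM on log axes of the 9 members tested in the posterior eyecup, 1 point per library (6 to 8 per group), by age in months and genotype, with a bar at each group median. Egr2 and Nr4a3 spread upward at 17 months, Nr4a2 drifts down, and 1 Efemp1ki/ki library of 17 months tops Egr1, Egr3, Nr4a1, Dusp1 and Ier2.

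Eyecup composition shifted over the same span. Between 3 and 17 months 6 of 7 macrophage and microglia markers and 5 of 10 skeletal muscle markers rose, and 7 of 8 lens markers and 6 of 10 corneal and conjunctival markers fell. Over all genes 11.6% were called higher and 9.13% lower. The macrophage sum had a median of 157.79 CPM (147.35 to 229.85) in wild type at 3 months and 280.35 (189.45 to 315.69) at 17 months, and 177.64 (147.42 to 222.69) and 296.24 (216.88 to 396.73) in Efemp1ki/ki. The muscle sum ran from 3832.1 to 11765 CPM and from 2612.9 to 30582 in wild type, and from 4230.3 to 17810 and from 2742.6 to 35364 in Efemp1ki/ki. The corneal and conjunctival sum ran from 36315 to 55683 CPM and from 23874 to 42182 in wild type, and from 40750 to 53719 and from 24749 to 51114 in Efemp1ki/ki, and the lens sum from 6.77 to 400.21 and from 5.11 to 10.6, and from 10.8 to 219.88 and from 6.93 to 122.42. No marker was at 0 in all eyecups. With rod, muscle and corneal markers as covariates 1 of the 4 members kept its call between 3 and 17 months, Nr4a3, and 710 genes were called in all. Egr2 then had 0.73 (adjusted p = 0.115; from 2.42e-05 over all alternatives), Nr4a1 0.32 (adjusted p = 0.507; from 0.000492) and Nr4a2 -0.32 (adjusted p = 0.0510; from 4.42e-05).

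**Figure D4:**
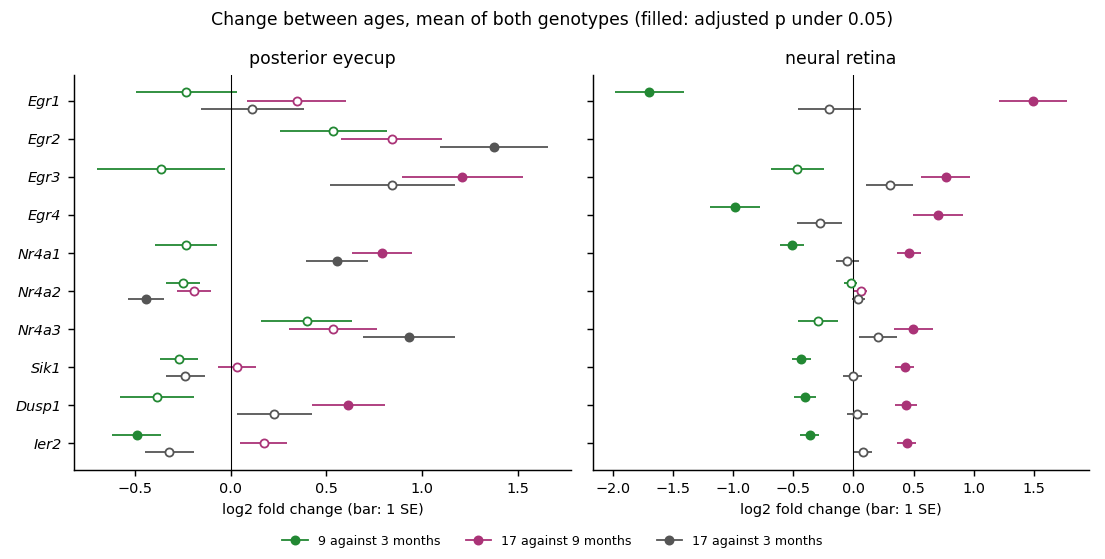
Log2 fold changes between ages (mean of both genotypes, bars 1 SE) for members tested in each tissue; filled points passed at an adjusted p under 0.05 over all genes. In the retina the 9 against 3 months points lie below 0 and the 17 against 9 months points above it for all 9 tested members, Nr4a2 closest to 0 at -0.02 and 0.06; in the eyecup 7 of 9 lie below 0 at the first step and 8 of 9 above it at the second.

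The change from 3 to 17 months differed between tissues for 3 of 10 members in a fit of all 93 libraries, where 19.1% of 19210 genes were called. Egr2 and Egr4, which passed the filter on low counts within 1 tissue only, were not called here. Retina minus eyecup, the difference was -0.60 ± 0.19 for Nr4a1 (adjusted p = 0.0180), 0.49 ± 0.10 for Nr4a2 (adjusted p = 0.000203) and 0.40 ± 0.15 for Ier2 (adjusted p = 0.0429). Nr4a2 thus fell in the eyecup relative to the retina and passed in all 11 alternatives. Nr4a1 passed in 10 of 11 and Ier2 in 6 of 11, with adjusted p-values up to 0.140 and 0.279.

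Between tissues, 8 of 10 members were higher in the eyecup and 2 in the retina, averaged over the 6 genotype and age groups. All 10 were called, as were 94.7% of all genes (47.7% higher, 47.0% lower), so the calls say little about these genes and the sizes are given instead. Sik1 was 3.06 ± 0.05 higher in the eyecup on the log2 scale, Nr4a3 2.39 ± 0.12, Dusp1 2.05 ± 0.09 and Ier2 1.86 ± 0.06. Egr1 was 1.72 ± 0.16 higher, Nr4a2 1.64 ± 0.04 and Egr3 0.49 ± 0.16. Nr4a1, at -0.35 ± 0.08, was higher in the retina. Egr2 (4.63) and Egr4 (-2.20) passed the filter on low counts in this fit only through the tissue where they are high. Their sizes and calls here are a description. Egr4 had a median of 1 read in eyecups, and 53 reads in 1 of them. Sik1 separated the tissues fully, with 51.8 to 131 CPM in eyecups and 6.46 to 17.98 in retinas on a common scale. Nr4a1 overlapped, with 9.14 to 62.0 and 12.2 to 47.9 CPM. The directions of Egr3, Egr4 and Nr4a3 turned with marker lists as covariates, lists that themselves separate the tissues. Dusp1 changed sign there too, to -0.0062, which is close to no difference. That of Egr3 also turned on the log2(TPM + 1) scale, to -0.12, where the median of all genes moved to -0.52.

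The genotype values that stood behind the choice of members were as follows, and nothing is read from their counts. In retinas at 3 months all 9 tested members had positive fold changes in Efemp1ki/ki (median 0.66, against -0.00099 over all genes), and 4 were called, where 1.83% of all genes were: Egr1 (1.78 ± 0.38), Nr4a1 (0.82 ± 0.14), Sik1 (0.71 ± 0.11) and Dusp1 (0.59 ± 0.13). With marker covariates Egr1 and Dusp1 were not called. The ranges of 1 member, Sik1, did not overlap, as for 0.418% of all genes. At 9 months the fold changes ran from -0.16 for Egr3 to 0.22 for Dusp1, with 0 members and 0 genes called by edgeR and by DESeq2 and 0 members at an unadjusted p under 0.05. At 17 months 1 was called, Nr4a1 (0.58 ± 0.14), where 0.406% of all genes were; that call held in 5 of 10 alternatives. Egr1 had 1.27 ± 0.37, Nr4a3 0.48 ± 0.21 and Sik1 0.43 ± 0.11. Over the 3 ages the retinal mean was 1.09 ± 0.22 for Egr1, 0.52 ± 0.08 for Nr4a1, 0.45 ± 0.13 for Nr4a3, 0.43 ± 0.06 for Sik1 and 0.38 ± 0.07 for Dusp1, the 5 called members, where 5.24% of all genes were called. Nr4a2 had -0.03 ± 0.04 and Ier2 0.08 ± 0.06.

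In the eyecups the genotypes overlapped for Egr1. Wild-type eyecups held 16.1, 36.9 and 112 CPM of Egr1 (lowest, median, highest) at 3 months, 19.1, 37.6 and 66.02 at 9 months and 22.5, 40.5 and 75.3 at 17 months. Efemp1ki/ki eyecups held 63.6, 98.4 and 123 CPM, then 43.3, 85.3 and 154, then 54.3, 86.7 and 347. The medians of Efemp1ki/ki were higher at each age, and the ranges overlapped at each age. Fold changes of Egr1 were 1.003 ± 0.40, 1.10 ± 0.36 and 1.35 ± 0.37 at 3, 9 and 17 months. At 3 months 1 member was called, Nr4a1 (0.83 ± 0.24), where 3.07% of all genes were, and with a correction for GC content none was (Nr4a1 0.66). At 9 and 17 months edgeR and DESeq2 called 0 members, where edgeR called 0.00555% and 0.0611% of all genes, and 2 and 5 members had an unadjusted p under 0.05. Over the 3 ages 4 were, where 4.48% of all genes were: Egr1 (1.15 ± 0.22), Egr3 (1.001 ± 0.27), Nr4a1 (0.64 ± 0.13) and Ier2 (0.37 ± 0.10). Without Efemp1ki/ki eyecup 5 of 17 months 2 were, and Egr3 had 0.73. At 3 months the mean slope of log2 CPM on gene GC content (per 10 percentage points) was 0.233 for the Efemp1ki/ki group and -0.0679 for the wild-type group, and its part in these values was not tested beyond that correction.

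Ordered by mean CPM over the 6 groups of a tissue, a gap between neighbouring groups exceeded the larger SD in 4 of 50 neighbour pairs in the retina and 1 of 50 in the eyecup, and no neighbouring ranges were separate. The 4 retinal gaps all lay below the Efemp1ki/ki retinas of 17 months, for Egr1, Nr4a1, Sik1 and Dusp1. For these 4 genes the Efemp1ki/ki retinas of 3 months stood first and the wild-type retinas of 9 months last. The gap in the eyecup lay below the Efemp1ki/ki eyecups of 3 months, for Sik1. This order includes the genotype values known when the members were chosen, so it is a description only. The share of such gaps over all genes was not computed.

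Within groups the members varied together to unequal degrees. Correlations of log2 CPM centred on group means had a median Pearson r of 0.32 over 36 pairs in 48 retinas and 0.36 over 36 pairs in 45 eyecups, as a description, since all genes of a library share its depth and dissection. Egr1 and Dusp1 were the closest pair in both tissues, with r = 0.84 in the retina and 0.85 in the eyecup. Nr4a2 stood apart in the retina, with a mean r of -0.19 with the others, and not in the eyecup, where it was 0.30. Within retinal groups Egr1 had an SD of 0.78 on the log2 scale, larger than that of 99.2% of tested genes, whereas Nr4a2 had 0.14, larger than that of 44.7%. In the eyecup, where the median gene had an SD of 0.32, Egr1 had 0.72 and exceeded 86.7% of genes.

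**Figure D5:**
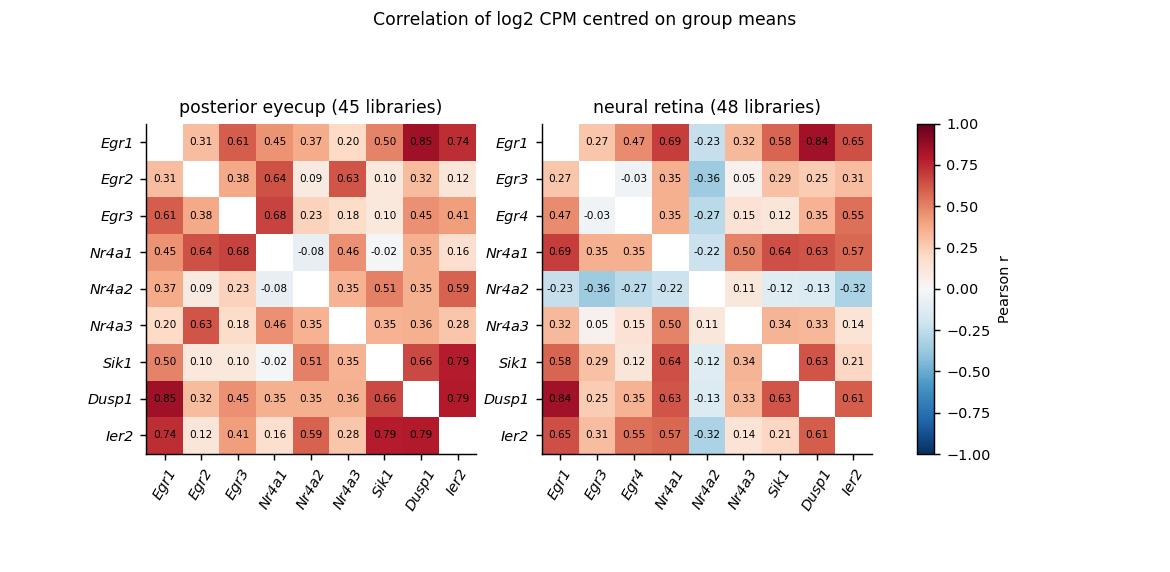
Pearson r between members of log2 CPM centred on group means, over 45 posterior eyecups and 48 neural retinas. Egr1 and Dusp1 are the darkest pair in both tissues, and the retinal row of Nr4a2 is negative except with Nr4a3.

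The genes outside the set that followed the mean of the tested members most closely within retinal groups were Fos (r = 0.92 over 48 libraries), the subunit of AP-1, Btg2 (0.68), an antiproliferative early gene, Junb (0.66), 1700123O20Rik (0.65), Prkrip1 (0.64) and Zfp672 (0.61). In eyecups they were Ppp1r15a (0.78 over 45 libraries), a stress-induced phosphatase subunit, Jun (0.76), Fos (0.73), Klf2 (0.73), a flow-sensitive endothelial factor, Txnip (0.71) and Id1 (0.70). Within eyecup groups the members' mean had r = 0.45 with skeletal muscle markers, 0.48 with endothelial markers and 0.40 with corneal and conjunctival markers. It had r = -0.48 with rod markers, -0.48 with Mueller glia markers and -0.50 with those of other retinal neurons. In retinas macrophage markers had r = -0.38, markers of other neurons -0.35 and rod markers -0.03. Skeletal muscle markers had r = 0.44 there, but summed to between 4.44 and 9.16 CPM. Only 4 of those 10 passed the filter on low counts, so that r rests on values near the floor. Their part in the members' spread was not tested.

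Partners of the members were followed as lists chosen for their known roles. Of 9 AP-1 subunits and relatives, 5 fell from 3 to 9 months in the retina and 7 rose from 9 to 17 months, with medians of -0.26 and 0.39. Over all genes 16.6% were called lower at the first step and 12.7% higher at the second. Fos, induced by the same signals as Egr1, fell by 1.02 (SE 0.17, adjusted p = 1.10e-05) and rose by 0.83 (SE 0.17, adjusted p = 0.000344), and Junb by 0.45 (SE 0.08) and 0.59 (SE 0.08). Atf3, a stress-induced member of the family, had 0.04 ± 0.06 at the first step, which did not pass, and rose by 0.49 ± 0.06 at the second, and Fosb had -0.03 ± 0.10 and rose by 0.36 ± 0.09. Of 25 other immediate early genes 8 fell and 1 rose to 9 months, and 6 rose and 0 fell to 17 months. Gadd45b, a DNA damage and stress gene, rose by 0.52 ± 0.07 at the second step and Socs3, a brake on cytokine signalling, by 0.21 ± 0.07.

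Lists of genes that act with the members were mixed in direction. Over all retinal genes 34.0% were called from 3 to 9 months, 16.6% lower, and 27.0% from 9 to 17 months, 12.7% higher. The counts below are a description beside those shares. Of 4 Egr partners and corepressors, 1 fell and then 3 rose in the retina: Nab2, an Egr corepressor, by 0.20 ± 0.06 and then 0.21 ± 0.06, Ep300 by 0.22 ± 0.03 and Crebbp by 0.21 ± 0.03. Among 3 retinoid X receptors, which pair with Nr4a1 and Nr4a2, Rxra (-0.12 ± 0.03) and Rxrb (-0.11 ± 0.04) fell to 9 months and 0 rose afterwards. Of 9 genes of the Sik, Crtc and Creb list, 1 rose to 9 months (Crtc2, 0.16 ± 0.04), and 3 rose and 1 fell to 17 months, Sik2 among them (0.22 ± 0.05). Of 15 tested MAP kinases and their phosphatases 5 fell to 9 months, and 4 rose and 2 fell to 17 months, Mapk9, a stress-activated kinase, by 0.11 ± 0.02. Of 13 clock genes, 4 rose to 9 months, Per3 among them at 0.33 ± 0.04, and 2 rose and 3 fell to 17 months. The part of clock gene changes in those of the members was not tested. Of 6 genes of the serum response factor list 2 rose from 9 to 17 months, and of 8 late response genes of active neurons 2 fell from 3 to 9 months, with no call at the other step. Of 6 glucocorticoid-responsive genes 3 fell and 1 rose to 9 months, and 3 rose to 17 months. Of 7 heat shock genes 4 fell to 9 months and 3 rose to 17 months, Hspa1b by 0.18 ± 0.05 and then 0.35 ± 0.05.

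In the eyecup between 3 and 17 months 2 of 9 AP-1 genes rose and 2 fell, with Atf3 at 0.59 ± 0.16 and Jund at -0.36 ± 0.11. Over all genes 20.7% were called, 11.6% higher and 9.13% lower. Of 26 other immediate early genes 6 rose and 5 fell, Rgs1, a regulator of G protein signalling found in leukocytes, rising by 2.34 ± 0.31 and Homer1, a synaptic scaffold gene, by 0.55 ± 0.10. Rxrg rose by 0.98 ± 0.22, the single call among 3 retinoid X receptors, and Crem, a cAMP-responsive factor, by 0.28 ± 0.08, the single call among 9 genes of its list. Dusp5 fell by 0.45 ± 0.12. Of the late response genes 1 of 8 rose (Pcsk1, a prohormone convertase, by 1.14 ± 0.31), of the glucocorticoid-responsive genes 2 of 6 rose, and of the heat shock genes 2 of 7 rose and 3 fell, Hspa1a by 0.59 ± 0.12.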

How the data were processed

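Poly(A) RNA libraries were made with a stranded kit, per the labels' protocols. The authors deposited estimated counts per gene, and a TPM table rescaled so that protein-coding genes sum to a fixed total, which was treated as a score. The build was GRCm38.p4, per the submitters' processing notes; aligner, counter, annotation release and strand setting: not given in the sources used here. In each file 1 column could not be tied to a sample and was not used.

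Estimated counts were rounded to whole numbers. Each tissue was fitted over its 6 groups (18003 genes in eyecups, 17240 in retinas), and both together over 12 groups (19210 genes), after filterByExpr and TMM scaling, with edgeR 4.0.16 (robust quasi-likelihood F test) in R 4.3.3. Calls are at a Benjamini-Hochberg adjusted p under 0.05 over all genes. Log2 CPM used a prior count of 2. SEs are the absolute log2 fold change divided by the root of F. DESeq2 1.42.0, limma 3.58.1 (voom with quality weights, and limma on log2(TPM + 1)) and the other alternatives are in the closing section. A GC correction used a spline over the 99.7% of genes with a GC value. The steps were tested on simulated data.

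The members and lists were chosen with earlier results of these data known. All 10 members are named, and names outside the set were limited to the 6 genes most correlated with them in each tissue, every AP-1 gene, and from each other list the 2 genes with the smallest p between 3 and 17 months in each tissue.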

Additional observations from a re-analysis of the deposited data

Results flagged for a closer look

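In 7 of 108 member and group combinations 1 library stood far from the other libraries of its group, where chance alone flags about 1 in 20 (5.4 of 108). The highest were wild-type eyecup 5 of 9 months for Egr3 (0.781 CPM, next 0.435), Efemp1ki/ki eyecup 5 of 17 months for Egr3 (6.21 CPM, next 1.45) and wild-type eyecup 9 of 3 months for Sik1 (99.5 CPM, next 83.1). The lowest were wild-type retina 3 of 17 months for Egr4 (0.319 CPM, next 0.773) and for Ier2 (11.7 CPM, next 16.1), Efemp1ki/ki retina 4 of 17 months for Egr4 (0.369 CPM, next 0.731) and wild-type retina 4 of 9 months for Nr4a3 (0.644 CPM, next 1.14).

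The change from 3 to 17 months differed between tissues, retina minus eyecup, by -0.60 for Nr4a1, 0.49 for Nr4a2 and 0.40 for Ier2 on the log2 scale, by the interaction test given above.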

How the results depend on the processing

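Of 507 recomputed fold changes of called members, 28 were no longer past the threshold, 8 moved by more than 1 SE, 5 reversed and the others kept their direction and side of the threshold. All 5 reversals lie in eyecup against retina: Egr3 at -0.12 on log2(TPM + 1), and, with marker covariates, Dusp1 at -0.0062, Egr3 at -2.34, Egr4 at 3.37 and Nr4a3 at -4.64. The median of all genes there moved to -0.52 on log2(TPM + 1), -0.35 with the GC offset and 0.20 with covariates. The cause of the shifts was not tested. Retinal counts from 9 to 17 months stayed within 1.5 times in the alternatives run.

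Counts of members called are followed in parentheses by all genes. Eyecup against retina gave 10 (18190) and, with covariates, 4 (5314). The tissue difference in age change gave 3 (3673), 1 (4147) with covariates and 5 (4591) with voom. Eyecups of 17 against 3 months gave 4 (3724), 1 (710) with covariates and 7 (4489) without the libraries standing apart. Eyecups of 17 against 9 months gave 3 (936), 5 (4376) with voom, 1 (370) on log2(TPM + 1) and 1 (618) without Efemp1ki/ki library 5 of 17 months; other counts of all genes ran from 345 with the GC offset to 1433 with DESeq2. Eyecups of 9 against 3 months gave 1 (2288), 3 with DESeq2 (3072), RLE (2592), voom (4092) or without the libraries apart (3651), 2 with covariates (3327) or only the groups compared (2653), 0 (467) with the GC offset and 1 (929) on log2(TPM + 1). Retinas of 17 against 3 months gave 0 (6273) and 1 (6763) on log2(TPM + 1), with 2263 genes under covariates. Retinas of 9 against 3 months gave 6 (5865) and 4 (1220) with covariates.

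By genotype, eyecups at 3 months gave 1 (553), 2 (2487) with covariates, 3 (2359) with voom, 1 (976) with DESeq2 and 0 with the GC offset (14), log2(TPM + 1) (10), no filter (434) or only the groups compared (101). At 9 and 17 months they gave 0 members throughout, with 1 gene or 0 and with 11 genes (0 to 478). Over the ages they gave 4 (807), 2 (125) with the GC offset, 1 (34) on log2(TPM + 1) and 2 (748) without library 5, with up to 2524 genes under covariates. Retinas at 3 months gave 4 (316), 2 (9) with covariates and 7 (1927) with voom, other counts running from 121 to 648 genes. At 17 months they gave 1 (70), 3 with DESeq2 (272) or log2(TPM + 1) (682), 2 (249) with the GC offset, and 0 with covariates (12), voom (1), no filter (3), only the groups compared (1) or without the libraries apart (1). Over the ages they gave 5 (903), with 309 genes under covariates to 2008 on log2(TPM + 1).

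Libraries with the same replicate number, always of different groups within a tissue, had a mean r of -0.0015 in eyecups and 0.0078 in retinas. Single pairs ran from -0.78 to 0.86 and from -0.20 to 0.29. Between eyecup and retina of the same genotype and age, 41 same-numbered pairs had a mean r of 0.028, against -0.0038 for other pairs. Whether an eyecup and a retina came from 1 mouse is not in the labels, and the fit of both tissues took them as unpaired. With the number as a replicate block, eyecups at 3 months gave 0 genotype calls (160) and retinas at 17 months gave 3 (76). Dusp1 from 9 to 17 months in eyecups (0.59, adjusted p = 0.0759 by edgeR) and the tissue difference of Ier2 (0.37, adjusted p = 0.0811) no longer passed under the block.

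Egr2 in retinas (0 to 6 reads) and Egr4 in eyecups were too low to test in the fit of that tissue.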

Other observations

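Egr4 was close to absent from eyecups except in Efemp1ki/ki eyecup 1 of 9 months, which held 2.69 CPM (53 reads), a library chosen after its values were seen.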
